A study of Triticum turgidum subsp. durum with 12 samples.

Results

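Gibberellins are growth hormones that promote stem and leaf elongation, and 4 wheat genes that act against them were followed here through leaves of plants lacking a phytochrome. *GA2ox-A4* (TraesCS1A01G334400) and *GA2ox-B11* (TraesCS4B01G272100) encode gibberellin 2-oxidases, enzymes that inactivate gibberellins. *Rht-A1* (TraesCS4A01G271000) and *Rht-B1* (TraesCS4B01G043100) encode DELLA proteins, which hold growth back until gibberellin triggers their breakdown. They were taken by identifier, chosen with earlier results of these data known. All 4 were found among the 72120 genes of the count table and in the TPM table. The digit and letter after "TraesCS" in an identifier name the chromosome, with A and B for the 2 genomes of tetraploid wheat. Gene coordinates and sequences were not used here.

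The 12 RNA-seq libraries came from *phyB*-null, *phyC*-null and WT leaves, with 4 biological replicates each. WT was the tetraploid durum variety Kronos, and each mutant line combines null mutations, induced by EMS, in both homeologs of 1 phytochrome gene after backcrosses to Kronos. All 3 genotypes carried *Ppd-A1a*, an allele that lowers photoperiod sensitivity, and were grown in short days of 8 h light and 16 h dark at 20 °C by day and 18 °C by night. Leaves were taken at 8 weeks, when apices of both mutants were vegetative and those of WT had begun spike development, so genotype and stage of the plant cannot be told apart, nor can the phytochrome mutations and any others left in each line. One set of WT libraries served both mutants, and the labels call the leaf both the youngest fully expanded and the third leaf.

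Phytochromes B and C are red and far-red light receptors, and in plants generally the phytochromes act on both the making and the removal of gibberellins. Gibberellin 20-oxidases produce the direct precursors of active gibberellins, whereas 2-oxidases remove them, and transcripts of both enzyme families commonly respond to the level of the hormone. DELLA proteins are best known in wheat from the semi-dwarfing alleles of *Rht-B1*. They are controlled largely by protein breakdown, which transcript counts do not measure. The alleles at *Rht-A1* and *Rht-B1* are not given in the sources used here.

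Library totals on genes lay between 37365465 and 58944135 counts. From these counts each pair of genotypes was compared over all 72120 genes by edgeR's quasi-likelihood test, and a gene was called at a Benjamini-Hochberg adjusted p below 0.01. Fold changes are those of the first genotype named over the second. Of all genes, 11.9% were called between *phyB*-null and WT (5.97% higher and 5.95% lower in *phyB*-null), 0.796% between *phyC*-null and WT (0.422% higher and 0.374% lower) and 3.41% between *phyB*-null and *phyC*-null (1.4% higher and 2.02% lower). As a check of the tissue, the summed level of 6 leaf genes, 4 for the Rubisco small subunit and 2 for chlorophyll a-b binding proteins, was 10128 to 18335 TPM in *phyB*-null, 7097 to 27603 TPM in *phyC*-null and 8856 to 16328 TPM in WT. TPM is a level per transcript length, scaled to the same total in every library. Summed TPM of 4 knotted-1-like genes of meristem and stem was low, and the sum was lowest in *phyB*-null, without overlap with the other genotypes. It was 0.219 to 0.381 TPM in *phyB*-null, 0.447 to 0.691 TPM in *phyC*-null and 0.437 to 0.587 TPM in WT. Each of these genes had only 0 to 20 counts in a library. TraesCS4B01G021900 went the other way, with a mean of 0.143 TPM in *phyB*-null, 0.0719 TPM in *phyC*-null and 0.112 TPM in WT. TraesCS1B01G091700 had 0 counts over *phyB*-null and 2 over WT. The 8 floral organ genes examined summed to 14.9 to 21.7 TPM in *phyB*-null, 9.20 to 10.5 TPM in *phyC*-null and 11.1 to 16.1 TPM in WT. Most of that came from *TaPI-A1* and *TaPI-B1*, while *TaAG-A2* and *TaAG-B2* stayed at or below 0.944 TPM. The part of these marker levels in the results was not tested. Libraries were sequenced over 2 lanes with 2 replicates of each genotype in a lane, but which library was in which lane is not given in the sources used here, so no value within a lane was computed.

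*GA2ox-A4* transcripts were most abundant in *phyB*-null leaves, intermediate in *phyC*-null and scarce in WT. The 4 *phyB*-null libraries had 7.10, 6.47, 5.47 and 6.50 TPM. The *phyC*-null libraries had 2.54, 1.99, 3.36 and 1.60 TPM, and WT had 0.334, 0.332, 0.386 and 0.170 TPM. No 2 genotypes overlapped on this scale. Means were 6.39 ± 0.675 TPM in *phyB*-null, 2.38 ± 0.763 TPM in *phyC*-null and 0.306 ± 0.0936 TPM in WT (± standard deviation, n = 4 each). In whole leaves, a change in the number of cells of a type and a change in RNA per cell cannot be told apart. The counts behind these levels were 1028 over the *phyB*-null libraries, 463 over *phyC*-null and 47 over WT.

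In *phyB*-null, *GA2ox-A4* rose by 4.49 on the log2 scale over WT (standard error 0.22, edgeR adjusted p = 1.19e-07), a 22.5-fold difference. This was the 47th smallest p of all genes in that comparison, a rank that is not independent support, since the gene was chosen with earlier results known. In *phyC*-null the gene rose by 3.14 over WT (standard error 0.40, edgeR adjusted p = 0.00165), or 8.84-fold. This call was lost at an adjusted p of 0.0103 when WT replicate 1 was left out, with a log2 fold change of 3.17. It held in the other 17 of 18 alternative fits, whose adjusted p went down to 2.77e-10.

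*GA2ox-A4* was 1.37 higher in *phyB*-null than in *phyC*-null on the log2 scale (95% interval 0.68 to 2.05), which did not pass the threshold (edgeR adjusted p = 0.0208), although the 4 libraries of each mutant did not overlap. Without *phyC*-null replicate 3 the log2 difference was 1.82 with an adjusted p of 0.000309, and the gene was called. DESeq2 also called the difference, at an adjusted p of 0.000911, and 7 of 18 alternative fits did so in all, with adjusted p from 0.000309 to 0.0635. *phyC*-null replicate 3 had the highest *GA2ox-A4* level of its genotype, the lowest TMM factor of all libraries (0.761, the factor by which edgeR corrects library size) and the highest summed chlorophyll a-b binding level, 2128 TPM, against 84.3 to 527 TPM in the other *phyC*-null libraries.

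*GA2ox-B11* had more than 2 counts in a library only in *phyB*-null. The *phyB*-null libraries had 87, 47, 52 and 49 counts, which are 2.34, 1.06, 1.16 and 1.06 TPM. In *phyC*-null the counts were 0, 0, 0 and 2, and in WT they were 0, 2, 0 and 1. The mean level was 1.40 ± 0.623 TPM in *phyB*-null (n = 4). Every *phyB*-null library lay above every other library, and the highest value elsewhere was 0.0519 TPM.

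The gene was called higher in *phyB*-null than in WT (edgeR adjusted p = 1.65e-05) and than in *phyC*-null (edgeR adjusted p = 0.000143). The deposited counts keep only genes with at least 3 counts in some library, which *GA2ox-B11* reached in *phyB*-null alone. It was thus tested only because of its *phyB*-null counts, and these calls are not independent support for the difference. With only 3 counts over the WT libraries, the ratio of *phyB*-null to WT counts, scaled by library size, was 80.7 with an exact 95% counting interval of 27.3 to 394. The ratio of *phyB*-null to *phyC*-null counts (235 and 2) was 138, with an interval of 37.7 to 1145. These intervals cover counting error only. Both *phyC*-null counts came from replicate 4, and 2 of the 3 WT counts from replicate 2. The fitted log2 fold change over *phyC*-null was 6.80 with all libraries and 8.98 without *phyC*-null replicate 4, and that over WT was 6.13 with all libraries and 7.06 without WT replicate 2, so the sizes of these folds depend on a single library while the call held without it. Between *phyC*-null and WT no difference in *GA2ox-B11* was detectable at this depth, since both groups were at or under 3 counts (edgeR adjusted p = 0.849), and no fold is given.

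**Figure D1:**
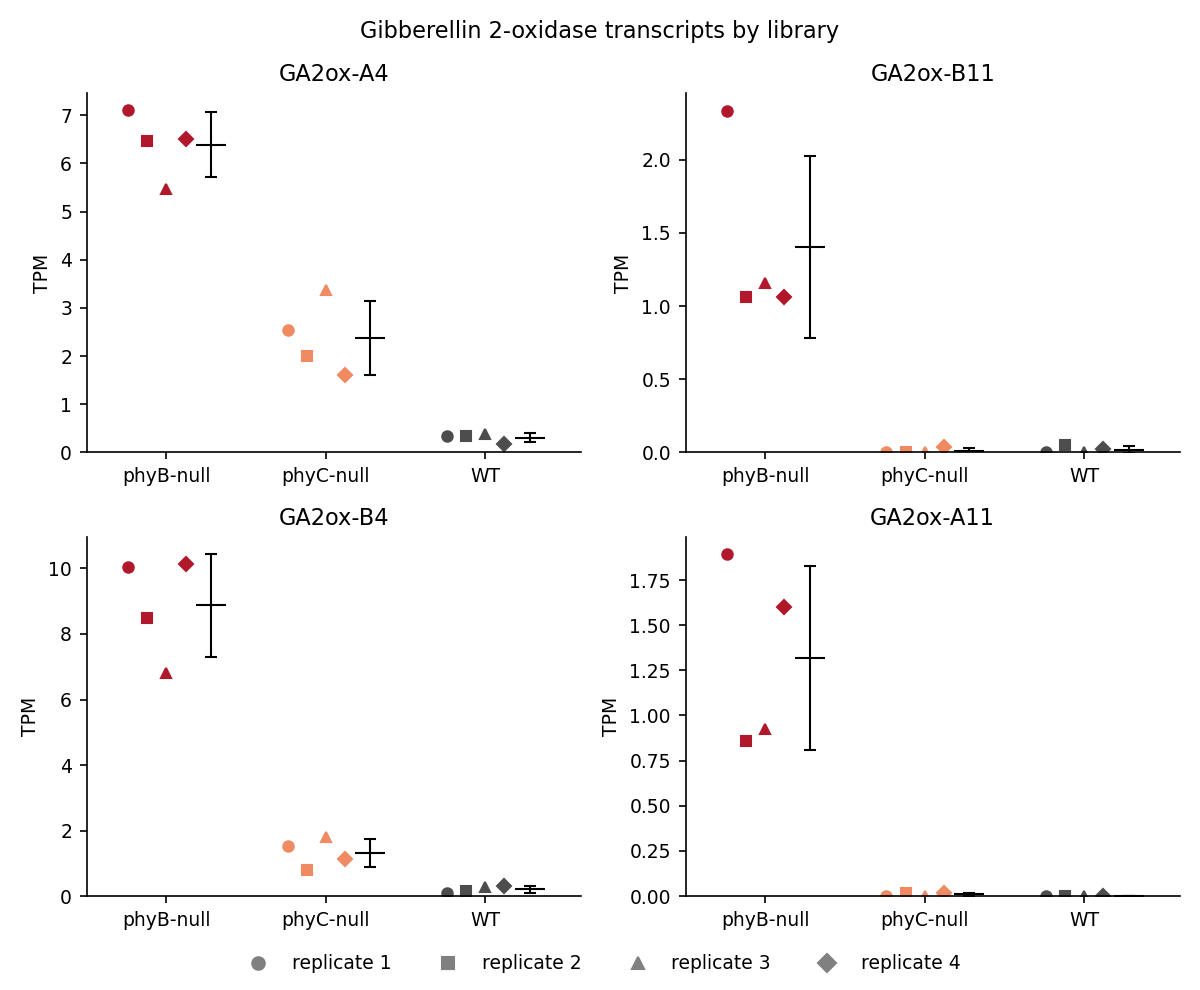
Transcript level (TPM) of 4 gibberellin 2-oxidase genes in each library, with *phyB*-null, *phyC*-null and WT from left to right, 1 marker shape per replicate number, and the mean ± standard deviation of 4 libraries as a dash with bars. For *GA2ox-A4* and *GA2ox-B4* the libraries do not overlap between genotypes, with *phyC*-null in between. *GA2ox-B11* and *GA2ox-A11* lie at or near 0 TPM outside *phyB*-null.

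Each GA2ox gene has a homeolog by name, the copy on the other genome, outside the 4 genes. *GA2ox-B4* (TraesCS1B01G347600) had 10.1, 8.49, 6.82 and 10.1 TPM in *phyB*-null. In *phyC*-null libraries it had 1.51, 0.8001, 1.79 and 1.14 TPM, and in WT 0.0843, 0.140, 0.268 and 0.319 TPM. The 3 genotypes were again in the same order with no overlap. Its log2 fold change was 5.50 in *phyB*-null over WT (edgeR adjusted p = 2.29e-07) and 2.70 in *phyB*-null over *phyC*-null (edgeR adjusted p = 0.00054). Between *phyC*-null and WT it was 2.82 and missed the threshold (edgeR adjusted p = 0.0115), while DESeq2 and edgeR's exact test called it.

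*GA2ox-A11* (TraesCS4A01G033200), the homeolog of *GA2ox-B11*, had 85, 46, 50 and 89 counts in *phyB*-null, 0, 1, 0 and 1 in *phyC*-null, and 0 in every WT library. Set against a floor of 3 counts over the WT group, its level in *phyB*-null exceeded that in WT at least 92.8-fold (edgeR adjusted p = 1.89e-05). In the first pair the A and B copies shared the order of genotypes, without overlap of libraries. *GA2ox-A4* was not called between the mutants, however, nor *GA2ox-B4* between *phyC*-null and WT. In the second pair no copy had more than 2 counts in any library outside *phyB*-null. *GA2ox-A11*, like *GA2ox-B11*, was thus in the count table only through its *phyB*-null counts.

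The balance within each pair was compared as the share of 1 copy in the summed TPM of both, with an exact two-sided permutation test over libraries and adjustment over 9 such tests. *GA2ox-A4* made up 41.4, 43.2, 44.5 and 39.1% of its pair in *phyB*-null. In *phyC*-null it made up 62.7, 71.4, 65.2 and 58.4%, and in WT 79.9, 70.4, 59.0 and 34.8%. The mutants did not overlap, with means of 42.1 ± 2.36% in *phyB*-null and 64.4 ± 5.43% in *phyC*-null (exact permutation p = 0.0286, the smallest that 4 against 4 allows, adjusted p = 0.257). For a share that exists in all libraries this smallest p lies above the 0.01 threshold, and for *GA2ox-B11* the smallest was 0.0667 or 0.333, so no share test could have passed and the shares are given as values. WT shares rest on 7 to 16 counts of *GA2ox-A4* and 3 to 13 of *GA2ox-B4* per library. *GA2ox-B11* made up 55.2, 55.2, 55.6 and 39.9% of its pair in *phyB*-null. In 2 *phyC*-null and 2 WT libraries neither copy was detected, so no share exists there, and the others rest on 1 to 3 counts.

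**Figure D2:**
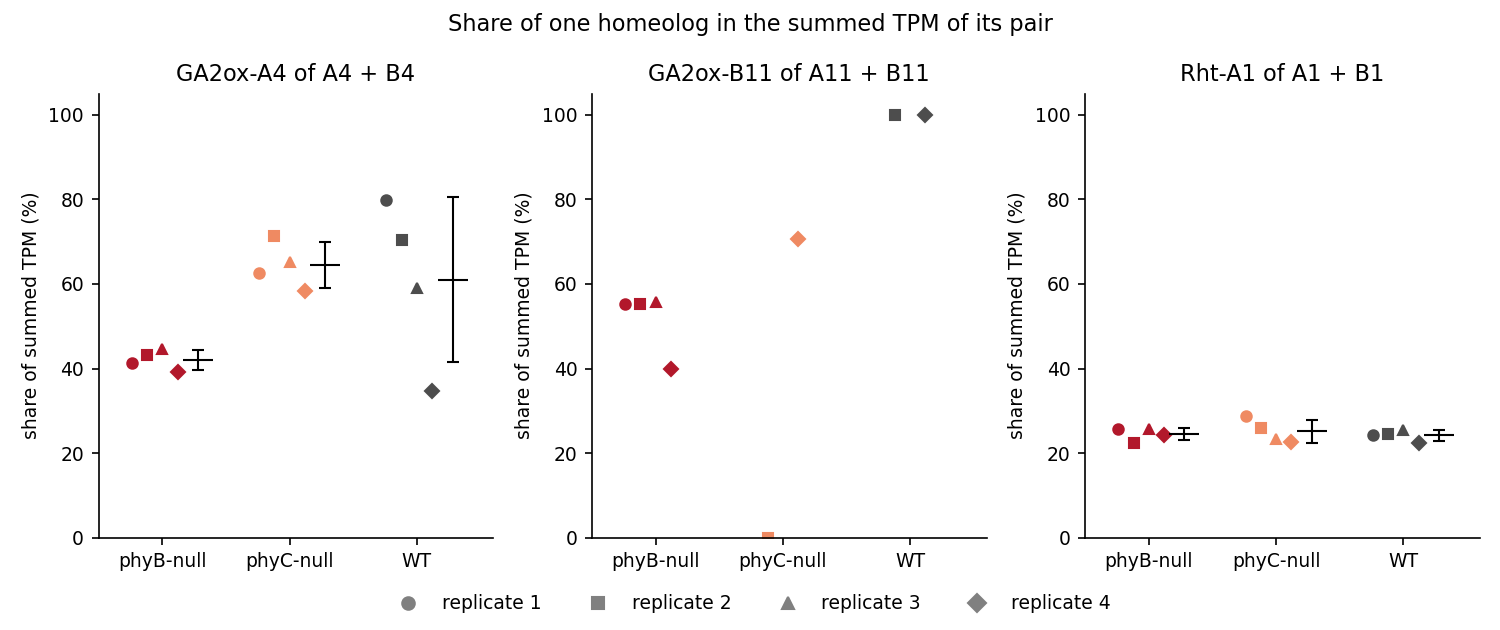
Share (%) of 1 homeolog in the summed TPM of its pair, per library, with *phyB*-null, *phyC*-null and WT from left to right, for *GA2ox-A4*, *GA2ox-B11* and *Rht-A1*. Dashes with bars give the mean ± standard deviation and are left out for *GA2ox-B11*, where shares in *phyC*-null and WT come from 1 to 3 counts. The *GA2ox-A4* share was 39.1 to 44.5% in *phyB*-null and 58.4 to 71.4% in *phyC*-null, and the *Rht-A1* share lay between 22.4 and 28.7% in all 12 libraries.

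The DELLA genes were expressed in every library, and their differences between genotypes were small beside those of the GA2ox genes. *Rht-A1* had 23.7, 20.7, 21.3 and 22.5 TPM in *phyB*-null. In *phyC*-null libraries it had 31.7, 22.6, 18.4 and 30.1 TPM, and in WT 18.8, 20.2, 19.1 and 18.9 TPM. All *phyB*-null libraries lay above all WT libraries, and *phyC*-null replicate 3 lay below them. On CPM, counts scaled by library size and TMM factor, the scale on which genotypes were tested, the levels were 37.4, 41.3, 37.3 and 37.2 in *phyB*-null, 48.3, 36.7, 42.9 and 46.2 in *phyC*-null, and 29.9, 31.0, 30.0 and 33.0 in WT. Both mutants were above WT without overlap on this scale. The share of all genes without overlap between genotypes was not computed, for this gene or for the others described here.

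The log2 fold change of *Rht-A1* over WT was 0.31 in *phyB*-null (95% interval 0.11 to 0.50) and 0.49 in *phyC*-null (95% interval 0.23 to 0.75), or 1.24-fold and 1.40-fold. Neither passed the threshold in edgeR, with adjusted p of 0.0263 in *phyB*-null and 0.0563 in *phyC*-null. DESeq2 called both, at adjusted p of 0.00344 in *phyB*-null and 0.00392 in *phyC*-null. It also called more genes in all, 12446 of 60421 tested in *phyB*-null against WT and 2468 of 59127 in *phyC*-null against WT. The edgeR test called 8595 and 574 of 72120 in these comparisons. Over 18 alternative fits the adjusted p ran from 0.00344 to 0.0858 in *phyB*-null and from 0.00392 to 0.392 in *phyC*-null, and both differences were above 0 in every one. Over all genes the median log2 fold change was 0.0026 in *phyB*-null over WT and 0.059 in *phyC*-null over WT. Between *phyB*-null and *phyC*-null the log2 difference was -0.17 (95% interval -0.43 to 0.09, edgeR adjusted p = 0.432).

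*Rht-B1* was the more abundant DELLA transcript. It had 68.6, 71.4, 61.7 and 69.8 TPM in *phyB*-null. In *phyC*-null libraries it had 78.6, 64.0, 60.05 and 102 TPM, and in WT 58.5, 62.2, 55.7 and 65.4 TPM. The 3 genotypes overlapped. Log2 fold changes over WT were 0.28 in *phyB*-null (95% interval 0.02 to 0.54, edgeR adjusted p = 0.125) and 0.42 in *phyC*-null (95% interval 0.07 to 0.76, edgeR adjusted p = 0.206). Between *phyB*-null and *phyC*-null the difference was -0.12 (95% interval -0.48 to 0.24, edgeR adjusted p = 0.707). *Rht-B1* was called by none of the tools in any comparison, with an unadjusted p of 0.0382 for *phyB*-null over WT and 0.0215 for *phyC*-null over WT.

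Spread between replicates of the DELLA genes was widest in *phyC*-null, by an amount that depended on the scale. The coefficient of variation of *Rht-A1* TPM was 6.01% in *phyB*-null, 24.5% in *phyC*-null and 3.35% in WT. For *Rht-B1* it was 6.29% in *phyB*-null, 25.0% in *phyC*-null and 7.03% in WT. On CPM with TMM factors it was 5.18% in *phyB*-null, 11.7% in *phyC*-null and 4.55% in WT for *Rht-A1*, and 13.6% in *phyB*-null, 17.8% in *phyC*-null and 11.7% in WT for *Rht-B1*. In both genes *phyC*-null replicate 3 had the lowest TPM of its genotype, whereas on the CPM scale the lowest was replicate 2. *Rht-A1* accounted for 24.6 ± 1.49% of the summed TPM of the pair in *phyB*-null, 25.2 ± 2.73% in *phyC*-null and 24.2 ± 1.28% in WT. Exact permutation p for this share ran from 0.571 to 0.686 (adjusted p = 0.771), and differences in the mean were at most 1.03 percentage points.

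**Figure D3:**
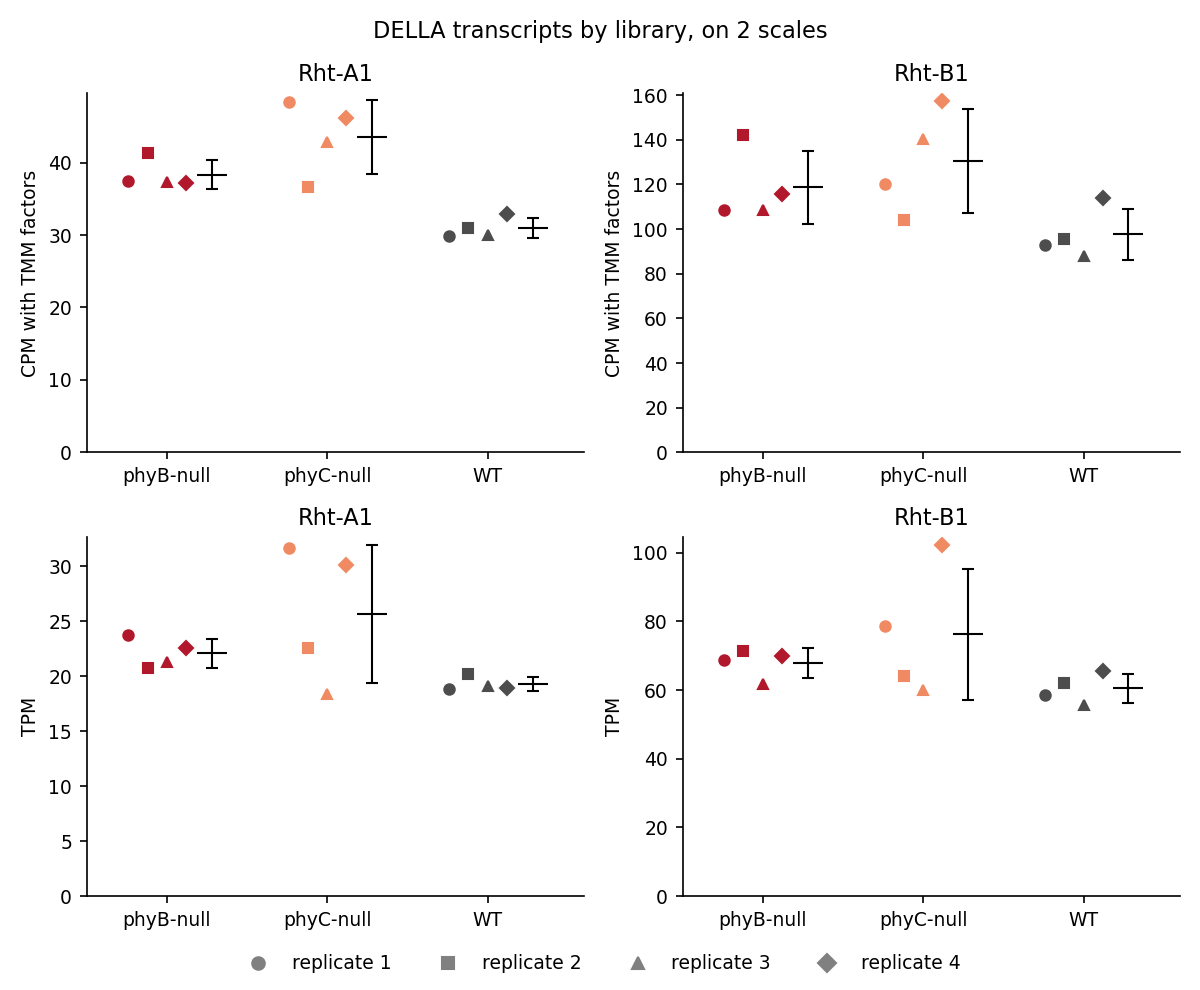
Level of *Rht-A1* (left) and *Rht-B1* (right) in each library on 2 scales, CPM with TMM factors above and TPM below, with *phyB*-null, *phyC*-null and WT from left to right and the mean ± standard deviation of 4 libraries beside the points. *Rht-A1* in both mutants lies above WT on the CPM scale (36.7 to 48.3 CPM in the mutants, 29.9 to 33.0 CPM in WT), while *Rht-B1* overlaps between genotypes.

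**Figure D4:**
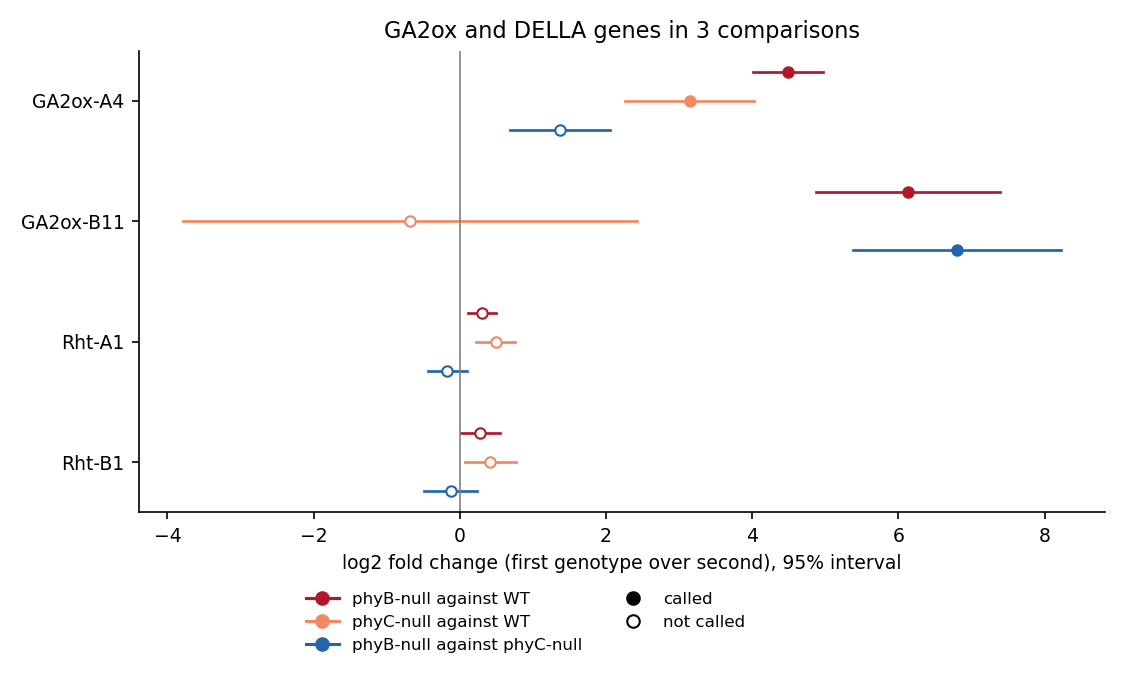
Log2 fold change with its 95% interval for the 4 genes in 3 comparisons, the first genotype over the second, with filled points for genes called at an adjusted p below 0.01. The GA2ox genes reach 4.49 and 6.13 in *phyB*-null over WT, whereas no DELLA value exceeds 0.49 and none is called. The *GA2ox-B11* values for *phyB*-null rest on 2 or 3 counts in the other genotype.

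Over the 4 genes, both GA2ox genes and neither DELLA gene were called in *phyB*-null against WT, where 11.9% of all genes were called. Of the 4, only *GA2ox-A4* was called in *phyC*-null against WT (0.796% of all genes) and only *GA2ox-B11* between *phyB*-null and *phyC*-null (3.41% of all genes). The 2 comparisons with WT share the WT libraries, and the 4 genes were chosen with earlier results of these data known.

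The 4 genes were set beside 17 other gibberellin genes. These were taken by annotation from the study's tables, many of which list genes that the study called in these same libraries, so the counts are not independent evidence of direction. In *phyB*-null against WT, 7 of the 17 were called higher and 5 lower, beside 5.97% and 5.95% of all genes. In *phyC*-null against WT, where 0.796% of all genes were called, edgeR called none of the 17. Of the 17, 6 had an unadjusted p below 0.05, and 1, *GA2ox-B4*, was called by DESeq2 and by edgeR's exact test. In *phyB*-null against *phyC*-null, 6 were called higher and 4 lower, beside 1.4% and 2.02% of all genes. The median log2 fold change of the 17 was 0.45 in *phyB*-null over WT, 0.82 in *phyC*-null over WT and -0.35 in *phyB*-null over *phyC*-null, beside medians over all genes of 0.0026, 0.059 and -0.044 in the same order.

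Of the 7 gibberellin 2-oxidases, including the 2 genes above, 6 had higher and 1 had lower levels in *phyB*-null relative to WT, all of them called. Of all genes, 5.97% were called higher and 5.95% lower in that comparison. The 7 were chosen with earlier results of these data known, so their calls and their sum are not independent evidence about the family. *GA2ox-A6* (TraesCS2A01G379000) had 9.67, 7.16, 7.40 and 10.3 TPM in *phyB*-null, against 0.109, 0.0227, 0.0326 and 0.0809 TPM in *phyC*-null. In WT it was at 0 TPM in 3 libraries and 0.0461 TPM in replicate 4. With 2 counts over WT, its count ratio of *phyB*-null to WT was 760 with an exact 95% counting interval of 210 to 6278. TraesCS2B01G396000, whose best match is *GA2ox-A6*, averaged 2.32 ± 0.392 TPM in *phyB*-null, 0.0387 ± 0.0279 TPM in *phyC*-null and 1 count over all WT libraries. In *phyB*-null over *phyC*-null both were called as well, at log2 values of 7.12 for *GA2ox-A6* and 5.74 for TraesCS2B01G396000.

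TraesCS3A01G133400, whose best match is *GA2ox-D7*, was lower in *phyB*-null. It averaged 0.0462 ± 0.0564 TPM in *phyB*-null and 0.54 ± 0.141 TPM in WT, and its log2 fold change was -3.43 (edgeR adjusted p = 0.0036). The call was lost, with adjusted p between 0.0102 and 0.014, without WT replicate 2, WT replicate 3 or *phyB*-null replicate 3. Summed over the 7 genes, 2-oxidase transcripts came to 23.7 to 33.8 TPM in *phyB*-null, 3.19 to 5.57 TPM in *phyC*-null and 0.866 to 1.31 TPM in WT. The 3 genotypes did not overlap. The summed level of the 2 chlorophyll a-b binding genes was below WT in every *phyB*-null library, with 22.6 to 229.5 TPM in *phyB*-null, 84.3 to 2128 TPM in *phyC*-null and 246 to 782 TPM in WT. The 4 Rubisco small subunit genes instead had higher means in *phyB*-null than in WT, 1032 to 6161 TPM in *phyB*-null and 604 to 5309 TPM in WT over the 4 genes, with overlap in each. Of the 8 floral genes, 6 had a higher mean in *phyB*-null than in WT, and *TaPI-B2* (0.0824 TPM in *phyB*-null, 0.170 TPM in WT) and *TaSTK-B2* (0.0338 TPM in *phyB*-null, 0.0622 TPM in WT) a lower one. *TaPI-B1* was nearly level, at 4.49 TPM in *phyB*-null and 4.46 TPM in WT. *TaAG-B2* differed little, at 0.0496 TPM in *phyB*-null and 0.0405 TPM in WT. The higher *TaAG-A2* mean came from *phyB*-null replicate 1, which held 74 of the 81 counts of its genotype. Of these 8 genes *TaSTK-A2*, singled out after its values were seen, was the one whose *phyB*-null libraries all lay above all others, with 0.739 to 1.44 TPM in *phyB*-null, 0.0912 to 0.243 TPM in *phyC*-null and 0.037 to 0.106 TPM in WT. Their part in the 2-oxidase levels was not tested.

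Gibberellin 20-oxidases, on the biosynthetic side, were mixed. Of 6 genes, *phyB*-null had 3 higher and 1 lower than WT that were called, beside 5.97% and 5.95% of all genes. *GA20ox2* (TraesCS3B01G439900) averaged 29.7 ± 4.53 TPM in *phyB*-null, 0.842 ± 0.846 TPM in *phyC*-null and 0.266 ± 0.101 TPM in WT, and rose by 6.90 in *phyB*-null over WT (edgeR adjusted p = 1.63e-08). TraesCS3A01G406200 averaged 10.1 ± 1.96 TPM in *phyB*-null, 0.161 ± 0.132 TPM in *phyC*-null and 0.246 ± 0.069 TPM in WT. *GA20ox-B4* (TraesCS1B01G274200) averaged 2.65 ± 1.22 TPM in *phyB*-null, 0.156 ± 0.276 TPM in *phyC*-null and 0.0825 ± 0.108 TPM in WT. Its log2 fold change of *phyB*-null over *phyC*-null was 4.21 and not called (edgeR adjusted p = 0.0122), but was called by DESeq2 (adjusted p = 0.00351), by edgeR's exact test (0.00106) and with all 12 libraries in 1 fit (0.00482). It was also called without *phyC*-null replicate 4, where the log2 value was 7.07.

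TraesCS4B01G081200 fell by 3.90 on the log2 scale in *phyB*-null, with 0.433 ± 0.133 TPM in *phyB*-null, 6.07 ± 1.52 TPM in *phyC*-null and 7.15 ± 1.91 TPM in WT. *GA20ox1* (TraesCS4A01G319100) and *GA20ox-A4* (TraesCS1A01G263600) were not called by edgeR in any of the 3 comparisons as fitted here. *GA20ox1* averaged 19.3 ± 1.97 TPM in *phyB*-null, 26.7 ± 19.5 TPM in *phyC*-null and 19.5 ± 7.32 TPM in WT. *GA20ox-A4* averaged 2.56 ± 1.44 TPM in *phyB*-null, 12.7 ± 16.9 TPM in *phyC*-null and 2.01 ± 1.42 TPM in WT. Summed TPM of the 6 genes was 53.4 to 73.7 in *phyB*-null and 23.3 to 40.2 in WT, without overlap, while *phyC*-null ranged from 22.5 to 101. The largest part in *phyB*-null was *GA20ox2* (mean 29.7 TPM, 0.266 TPM in WT), while *GA20ox1* was level and TraesCS4B01G081200 lower. These 6 were also chosen with earlier results of these data known, so their sum is not independent evidence about the family.

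The list also held 4 genes of the GRAS family of regulators, to which DELLA proteins belong. The 2 annotated as DELLA protein GAI, TraesCS3A01G233000 and TraesCS3B01G262400, were at low levels, at most 1.76 TPM in any library, and were not called in any comparison. The 2 annotated as chitin-inducible gibberellin-responsive proteins, TraesCS2A01G189600 and TraesCS2B01G217500, both fell in *phyB*-null. The first averaged 8.97 ± 1.02 TPM in *phyB*-null, 15.8 ± 2.32 TPM in *phyC*-null and 19.2 ± 1.74 TPM in WT, and its log2 fold change was -0.99 in *phyB*-null over WT (edgeR adjusted p = 1.19e-05). The second averaged 9.56 ± 0.728 TPM in *phyB*-null, 15.2 ± 1.31 TPM in *phyC*-null and 18.8 ± 1.64 TPM in WT, and its log2 fold change was -0.86 (edgeR adjusted p = 4.92e-05). Relative to *phyC*-null, both were also called lower in *phyB*-null. In limma on log2 TPM with pseudocounts of 1 and 0.1 both of these calls were lost, at adjusted p of 0.0197 and 0.0185 for the first and 0.0147 and 0.0141 for the second. The second also lost its call with library size alone (adjusted p = 0.0157). Its call was lost, with adjusted p between 0.0126 and 0.0326, when any library other than *phyC*-null replicate 3 was left out.

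Early in the pathway, TraesCS2A01G425600, annotated as kaurene synthase, which makes a gibberellin precursor, averaged 1.08 ± 0.419 TPM in *phyB*-null, 7.62 ± 2.57 TPM in *phyC*-null and 3.88 ± 1.77 TPM in WT. It fell by 1.73 in *phyB*-null over WT (edgeR adjusted p = 0.0023) and by 2.77 in *phyB*-null over *phyC*-null (edgeR adjusted p = 0.000147). In limma on log2 TPM the first of these calls was lost, at adjusted p of 0.0276 with a pseudocount of 1 and 0.0257 with a pseudocount of 0.1. TraesCS1B01G139400, annotated as ent-copalyl diphosphate synthase, which acts just before it, was not called (log2 fold change 1.20 in *phyB*-null over WT, edgeR adjusted p = 0.046), but was called without WT replicate 4 (1.75).

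**Figure D5:**
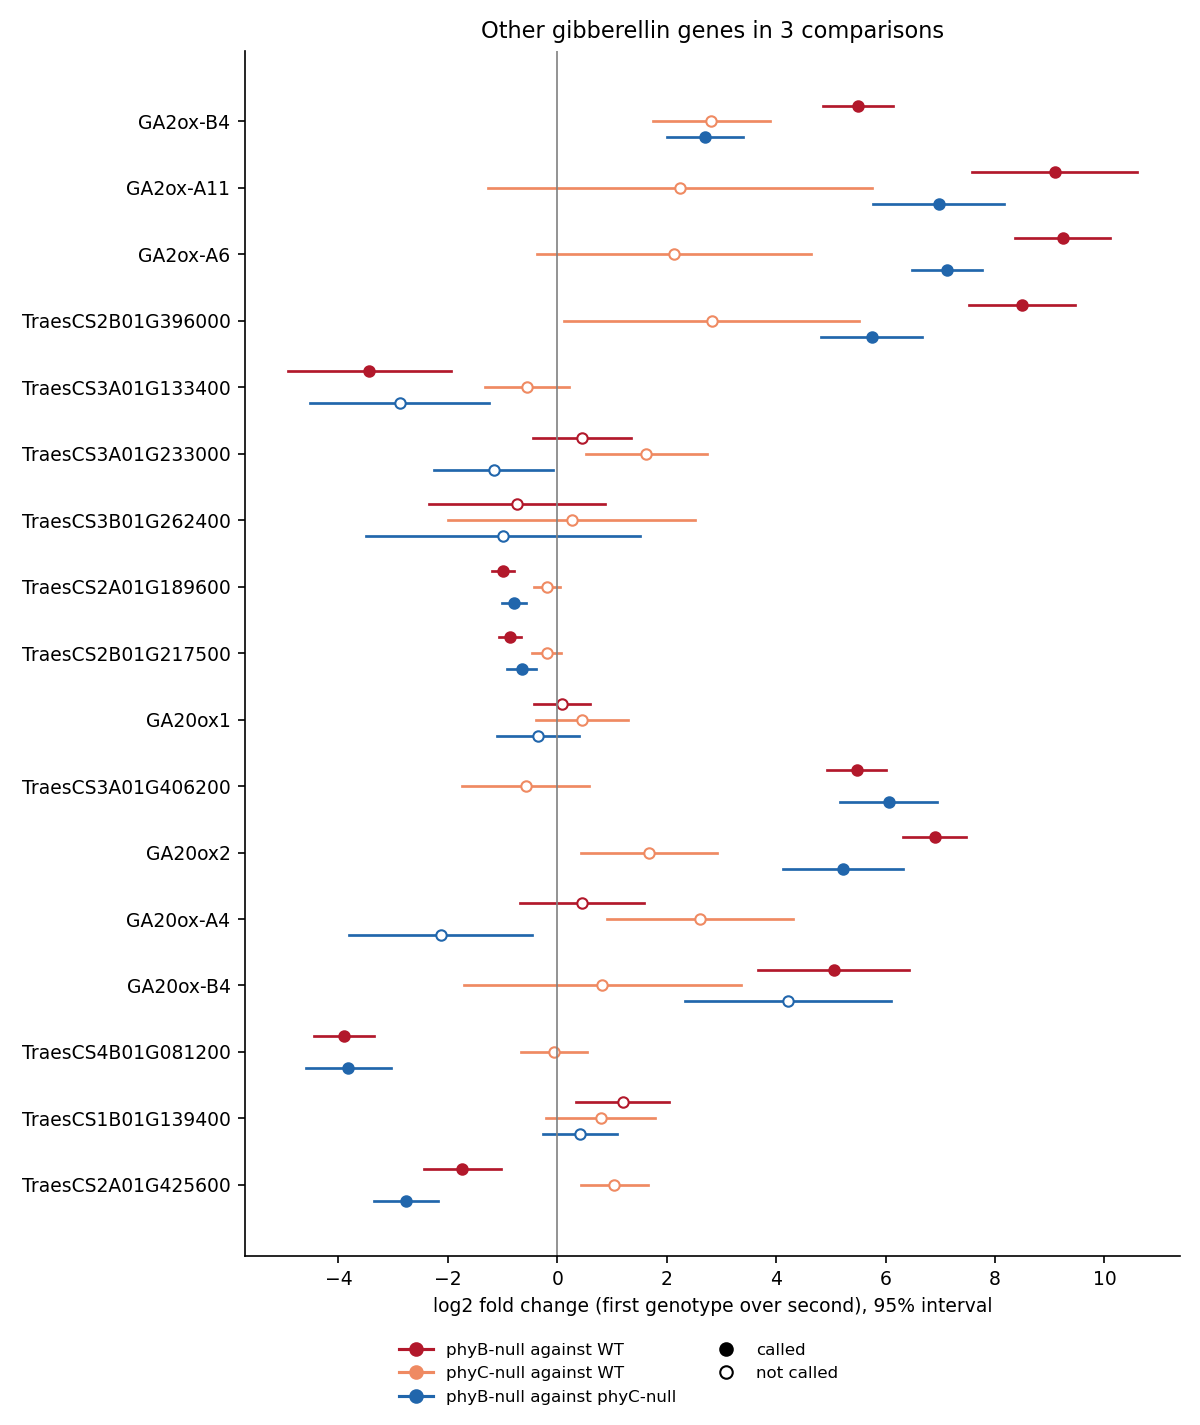
Log2 fold change with its 95% interval for 17 other gibberellin genes in 3 comparisons, the first genotype over the second, with filled points for genes called at an adjusted p below 0.01. From top to bottom stand the 2-oxidases (5 genes), the GRAS genes (4), the 20-oxidases (6) and the early enzymes (2). In *phyB*-null over WT 7 genes are called higher and 5 lower (5.97% and 5.95% of all genes). In *phyC*-null over WT none is called (0.796% of all genes). Values above 8 rest on 0 to 2 counts in WT.

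Among the genes with a mean of at least 1 CPM, those whose log2 CPM followed each of the 4 genes most closely over the 12 libraries were then listed. The measure is Pearson's r, given as a description, since libraries of 1 genotype share their genotype. *GA2ox-A4* was most like TraesCS2A01G427200, annotated as a cold-responsive protein, with r = 0.992 (Spearman's rho 0.951). Its mean level was 1230 TPM in *phyB*-null, 360 TPM in *phyC*-null and 41.4 TPM in WT. After subtraction of the genotype means the r was 0.84. The next were TraesCS7B01G226200 (r = 0.984) and TraesCS7A01G325500 (r = 0.974), both annotated as ferredoxins.

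*GA2ox-B11* was most like TraesCS6A01G306200 and TraesCS6B01G334600 (r = 0.981 each), both annotated as bHLH transcription factors. Both were near 0 outside *phyB*-null, with 15.1 and 16.3 TPM in *phyB*-null. Their means of 1.26 and 1.38 CPM over the 12 libraries passed the minimum of 1 CPM only through *phyB*-null. Their low levels elsewhere are thus no separate support for this likeness. The third was TraesCS3A01G166300 (r = 0.98). Within genotypes r was 0.329, 0.425 and 0.555 for these 3 genes, where *GA2ox-B11* itself had 0 to 2 counts in 8 of the 12 libraries. The genes most like *Rht-A1* were TraesCS3A01G286100, TraesCS6A01G398100 and TraesCS5A01G098600, with r from 0.941 to 0.95 and from 0.712 to 0.73 after subtraction of the genotype means. For *Rht-B1* they were TraesCS4A01G085900, TraesCS3B01G275000 and TraesCS1A01G176700, the last annotated as a trihelix transcription factor, with r from 0.94 to 0.946 and from 0.888 to 0.913 within genotypes.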

How the data were processed

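RNA-seq reads of 12 leaf libraries were mapped by the authors to the IWGSC RefSeq v1.0 assembly (GSNAP), and unique reads were counted with htseq-count. The authors deposited raw counts without normalization, after discarding genes with fewer than 3 counts in every library, and TPM for 190459 gene models. Reads that match both homeologs equally well are not counted, and the strand setting is not given in the sources used here. No column of other samples was present.

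Counts were tested in edgeR 4.0.16 (R 4.3.3) with TMM factors and quasi-likelihood fits on the 8 libraries of each pair, over all genes. The standard error comes from the F statistic. Alternatives were DESeq2 1.42.0, edgeR's exact test, other normalizations, a filter on low counts, a looser threshold, all libraries in 1 fit, a replicate block, limma 3.58.1 on log2 TPM and leaving out each library. On simulated data 4-fold changes were recovered in 96% of genes for *phyB*-null and WT, 90% for *phyC*-null and WT and 88% for the mutants, and 2-fold changes in 40%, 22% and 10%. The changed genes were drawn from those with at least 1 CPM in the second genotype. In WT *GA2ox-A4* (mean 0.269 CPM) and *GA2ox-B11* (0.0176 CPM) were below that, so the rates against WT do not cover them. The DELLA differences were smaller than the 2-fold changes simulated. Log2 CPM for likeness used a prior count of 2. Named genes were the 4 genes, the gibberellin lists and the 3 genes most like each. Members and lists were chosen with earlier results of these data known.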

Additional observations from a re-analysis of the deposited data

Results flagged for a closer look

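Dixon's critical value for 4 values was used on the TPM scale, which chance passes in about 5% of groups if values are normally distributed. Within a group of 4 libraries, 11 of 62 gene and genotype combinations had 1 library set apart from the other 3 by more than that value. Among the 4 genes these were *GA2ox-B11* in *phyB*-null replicate 1 (2.34 TPM), *GA2ox-B11* in *phyC*-null replicate 4 (0.0401 TPM, the only library of its genotype with a count) and *Rht-A1* in WT replicate 2 (20.2 TPM, against 18.8 to 19.1 TPM in the other WT libraries).

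Among the other gibberellin genes, WT replicate 4 was highest of its genotype for *GA2ox-A6* (0.0461 TPM), TraesCS2B01G396000 (0.0173 TPM), *GA20ox1* (30.4 TPM), *GA20ox2* (0.417 TPM) and *GA20ox-B4* (0.244 TPM). In *phyC*-null, replicate 4 was highest for *GA20ox2* (2.11 TPM), *GA20ox-A4* (38.0 TPM) and *GA20ox-B4* (0.57 TPM). WT replicate 4 and *phyC*-null replicate 4 thus hold 9 of the 11, and their libraries had 44157074 and 49715680 counts. A gene with counts in only 1 of 4 libraries is always flagged, whatever its level there. That was so for *GA2ox-B11* in *phyC*-null (2 counts), *GA2ox-A6* in WT (2 counts) and TraesCS2B01G396000 in WT (1 count), all in these replicate 4 libraries.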

How the results depend on the processing

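*GA2ox-A4* and *GA2ox-B11* in *phyB*-null against WT, and *GA2ox-B11* in *phyB*-null against *phyC*-null, kept their call and direction in all 18 alternative fits, and *Rht-B1* was never called. *GA2ox-A4* in *phyB*-null over *phyC*-null was called with DESeq2 (1.37), the exact test (1.37), both together (1.37), library size alone (1.41), a threshold of 0.05 (1.37), all 12 libraries in 1 fit (1.35) and limma with a pseudocount of 1 (1.15). Its values ranged from 1.17 to 1.82 with each library left out, and the call appeared without *phyC*-null replicate 3. In *phyC*-null over WT they ranged from 2.69 to 3.34, and the call went without WT replicate 1. *Rht-A1* was called with DESeq2 in *phyB*-null over WT (0.29) and in *phyC*-null over WT (0.47), and at a threshold of 0.05 in *phyB*-null over WT (0.31). *GA2ox-B11* in *phyC*-null over WT, with 2 and 3 counts, ranged from -2.87 to 0.27. The cause of these changes was not tested.

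Calls over all genes depended on the test. For *phyB*-null against WT they numbered 8595, with 12446 in DESeq2, 11384 in the exact test, 10756 in both and 15463 at a threshold of 0.05. In limma with pseudocounts of 1 and 0.1 they numbered 5218 and 5309. With each library left out they ran from 5270 to 8437, the lowest without *phyB*-null replicate 3 (5573 without WT replicate 2). For *phyC*-null against WT they numbered 574, with 2468 in DESeq2, 2189 in the exact test, 2003 in both, 1958 at 0.05, 907 with all libraries in 1 fit, 291 and 364 in limma, and 329 to 958 with each library left out (355, 351 and 329 without WT replicates 1, 2 and 3, and 958 without *phyC*-null replicate 3). For *phyB*-null against *phyC*-null they numbered 2462, with 6039 in DESeq2, 5005 in the exact test, 4726 in both, 6248 at 0.05, 3967 with all libraries in 1 fit, 1107 and 1228 in limma, and 1063 to 3537 with each library left out, 1063 to 1613 of them without any 1 *phyB*-null library or without *phyC*-null replicate 1 or 2. Of the 21 gibberellin genes, 1 was called in *phyC*-null against WT, with 3 in DESeq2 and 2 in the exact test, in both, with library size alone, at 0.05 and with all libraries in 1 fit.

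The replicate numbers did not consistently pair the libraries. Correlations of deviations between same-numbered libraries ran from -0.32 to 0.0083 for *phyB*-null and WT, from -0.0385 to 0.223 for *phyC*-null and WT (3 of the 4 at 0.168 or above) and from -0.532 to 0.55 for the mutants. Between differently numbered libraries they ran from -0.611 (*phyB*-null replicate 2 and *phyC*-null replicate 1) to 0.551 (*phyC*-null replicate 3 and WT replicate 4). Libraries of different genotypes thus did not all vary independently, and the cause was not tested. With a replicate block, 5388, 918 and 1826 genes were called in the 3 comparisons, and 3 gibberellin genes in *phyC*-null against WT, *GA2ox-A4*, *GA2ox-B4* (2.81) and *GA20ox-A4* (2.19, edgeR adjusted p = 0.00106). With the block TraesCS3A01G133400 was not called in *phyB*-null over WT (-3.50, adjusted p = 0.0198), nor was TraesCS2B01G217500 between the mutants (-0.65, adjusted p = 0.0193).

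Signs that changed belonged to values that were not called. *GA20ox1* ranged from -0.058 to 0.44 in *phyB*-null over WT, from -0.076 to 0.81 in *phyC*-null over WT and from -0.56 to 0.18 between the mutants with each library left out. TraesCS3B01G262400 was -0.37 with the replicate block and -0.0062 and -0.15 in limma for *phyC*-null over WT, and ranged from -1.01 to 0.68 there and from -1.61 to 0.27 between the mutants. In *phyC*-null over WT *GA20ox-B4* ranged from -2.001 to 2.35 and TraesCS4B01G081200 from -0.41 to 0.12. Differences in the *Rht-A1* share ranged from -0.23 to 1.04 percentage points (*phyB*-null less WT), from -0.133 to 1.86 (*phyC*-null less WT) and from -1.50 to 0.489 (*phyB*-null less *phyC*-null). The *GA2ox-A4* share differed by -27.7 to -12.7 between *phyB*-null and WT, and by -5.36 to 9.66 between *phyC*-null and WT. Without WT replicate 4, which had the lowest WT share (34.8%), the permutation p for *phyB*-null and WT was 0.0286. That is the smallest p possible with that library left out. The *GA2ox-B11* share differed by -19.2 to 51.5 between the mutants. Of the 3 genes most like *GA2ox-B11*, 1 stayed with a prior count of 0.5 and 1 with a minimum mean of 5 CPM, and of those most like *Rht-A1* 1 stayed with that minimum. Depth limits *GA2ox-B11* outside *phyB*-null, where at most 2 counts were found in a library.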
